A study of Mus musculus with 6 samples.

Results

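The 10 genes described here are CC chemokines, chosen by symbol from the deposited table of 57010 genes: Ccl2, Ccl3, Ccl4, Ccl5, Ccl6, Ccl7, Ccl8, Ccl9, Ccl12 and Ccl20. All 10 had a row, and all 10 passed the filter on low values (1 FPKM or more on average across all 6 libraries). Values are in FPKM, a read count set against gene length and library depth, so levels of different genes can be set side by side. The RNA came from skin of wild-type mice at the end of a diabetic ulcer experiment, and each mouse gave 1 library. For 3 mice, the gel put on the skin carried CST, taken to be the cortistatin of the series title, a peptide of the somatostatin family. The gel of the remaining 3 mice carried Yoda1, a synthetic activator of the mechanically gated cation channel Piezo1. No skin without drug was analysed here, so each comparison is CST-treated against Yoda1-treated skin. The labels name both skin and keratinocytes, and give no age, strain or sex.

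Chemokines are small secreted proteins that draw leukocytes along a gradient by binding G protein-coupled receptors. The CC family is named for adjacent cysteines near the start of the mature protein. In a skin wound the monocyte chemoattractant proteins Ccl2, Ccl7, Ccl8 and Ccl12 are known for bringing in monocytes, mostly through CCR2, although mouse Ccl8 acts on CCR8. The macrophage inflammatory proteins Ccl3 and Ccl4 attract monocytes and T cells, and Ccl3 and Ccl5 act on CCR1. Ccl6 and Ccl9 are ligands of CCR1 found in rodents. Ccl20 is made by epithelia and binds CCR6.

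The coding stretch around the defining cysteines is shown because it is what the family is named for and lets the members be compared. It is given for 9 members. Capitals mark the codons of the adjacent cysteines, each flanked by 12 bases, read from the GENCODE M21 transcripts (GRCm38).
Ccl4: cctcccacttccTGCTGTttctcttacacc
Ccl5: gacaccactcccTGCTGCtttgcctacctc
Ccl6: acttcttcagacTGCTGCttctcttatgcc
Ccl9: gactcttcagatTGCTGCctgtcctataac
Ccl2: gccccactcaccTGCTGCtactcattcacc
Ccl7: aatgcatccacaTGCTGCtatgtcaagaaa
Ccl8: gctccagtcaccTGCTGCtttcatgtacta
Ccl12: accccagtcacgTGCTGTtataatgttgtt
Ccl20: agcaactacgacTGTTGCctctcgtacata
Over the whole coding sequence, Ccl8 and Ccl12 were the most alike, with 70.8% of the aligned bases identical, followed by Ccl6 and Ccl9 with 69.3%. Ccl3 and Ccl4 were identical at 67.4% of 276 aligned bases. No run of 50 bases in a member's transcripts was also present in another member's, and none of 100 bases in a transcript of any other gene. The labels do not say how reads with several matches were counted.

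Ccl3 and Ccl4 lay higher in every CST mouse than in every Yoda1 mouse, by a little over 12-fold on the log2(FPKM + 1) scale, while Ccl2 and Ccl7 lay lower in every CST mouse. The other 6 members overlapped between the groups. Adjusted over all genes, no member passed the threshold of 0.05 in limma, and neither did any gene: 0 of 14588 genes were called (0% of those tested). Without adjustment, 584 genes had a limma p under 0.05, and 602 by limma-voom on reads recovered from the FPKM steps. Ccl3 and Ccl4 were among those higher in CST skin, beside 3.21% of all genes tested, and Ccl2 and Ccl7 among those lower, beside 0.788%. Without Yoda1 mouse 2, limma called 136 genes and no member, and without CST mouse 2 it called 8 genes and no member. With library weights estimated by limma, it called 1348 of the 14588 genes, among them 7 members. Those weights were 12.8, 0.657 and 0.193 for Yoda1 mice 1 to 3, so the Yoda1 side rested mainly on Yoda1 mouse 1.

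**Figure D1:**
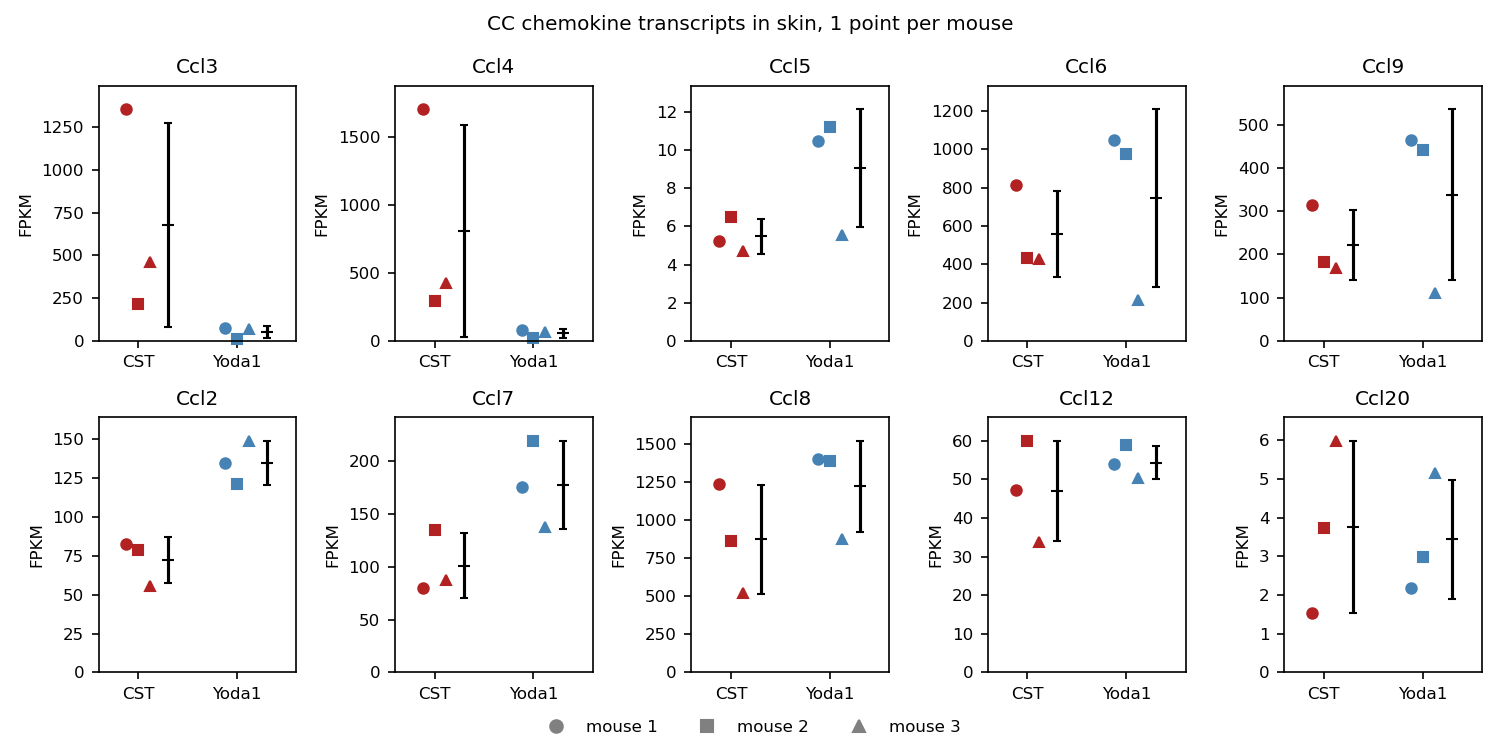
FPKM of each CC chemokine in skin of CST-treated (red, left) and Yoda1-treated (blue, right) mice, 1 point per mouse, with marker shape giving the mouse number and the black bar the mean and SD (n = 3). The CST points of Ccl3 and Ccl4 lie above every Yoda1 point, and those of Ccl2 and Ccl7 lie below.

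The libraries held 23791352 to 29620526 reads each. CST mouse 1 and Yoda1 mouse 3 had the highest mitochondrial share of all FPKM, at 6.72% and 7.61%, and the remaining libraries lay between 3.25% and 3.81%. Results are therefore also given without these mice. Keratinocyte, fibroblast, endothelial, macrophage, mast cell and muscle markers were all present, which makes the libraries whole skin rather than keratinocytes alone. Between 37 and 27511 reads stood behind each value of a member in a library.

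The genes were first compared as levels within a group. In CST skin the order of the group means from high to low was Ccl8, Ccl4, Ccl3, Ccl6, Ccl9, Ccl7, Ccl2, Ccl12, Ccl5 and Ccl20. In Yoda1 skin it was Ccl8, Ccl6, Ccl9, Ccl7, Ccl2, Ccl4, Ccl12, Ccl3, Ccl5 and Ccl20. Ccl8 had the highest mean in both, at 874 ± 358 FPKM in CST skin and 1222 ± 300 in Yoda1 skin (SD, n = 3 each). Most neighbours in these orders overlapped in their ranges. In CST skin the ranges were apart only between Ccl6 and Ccl9, Ccl9 and Ccl7, and Ccl12 and Ccl5. In Yoda1 skin they were apart only between Ccl2 and Ccl4, Ccl3 and Ccl5, and, narrowly, Ccl5 and Ccl20. By their means, Ccl4 and Ccl3 came directly after Ccl8 in CST skin and below Ccl2 in Yoda1 skin. The CST order differed between mice. In CST mouse 1, Ccl4 and Ccl3 lay above Ccl8, at 1703 and 1356 against 1237 FPKM. In CST mouse 2 they lay below Ccl6, at 296 and 218 against 432 FPKM.

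Ccl3, or macrophage inflammatory protein 1-alpha, attracts monocytes, neutrophils and T cells. It measured 1356, 218 and 459 FPKM in CST mice 1 to 3, against 77.2, 13.0 and 67.7 FPKM in Yoda1 mice 1 to 3. Every CST value lay above every Yoda1 value, with CST mouse 1 highest and Yoda1 mouse 2 lowest. The log2 change was 3.61 (SE 0.81), which is 12.2-fold, with an unadjusted p of 0.00231 and an adjusted p of 0.521 in limma. A change at least as large in the same direction was seen in 18 of the 14588 genes (0.123%), Ccl3 itself and Ccl4 included. Some skeletal muscle markers, whose log2 changes ran from 2.63 to 4.78, are among the 18 as well.

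Ccl4, the beta form of the same protein pair, measured 1703, 296 and 425 FPKM in CST mice, against 79.7, 18 and 68.3 FPKM in Yoda1 mice. The log2 change was 3.66 (SE 0.75), or 12.7-fold, with an unadjusted p of 0.00131 and an adjusted p of 0.521 in limma. CST mouse 1 again stood far above CST mice 2 and 3, and the lowest CST value was still several times the highest Yoda1 value. Without CST mouse 1 the log2 change was 2.91 for both Ccl3 and Ccl4, and without Yoda1 mouse 2 it was 2.81 for Ccl3 and 3.00 for Ccl4. With CST mouse 1 and Yoda1 mouse 3 both left out it was 3.26 for Ccl3 and 3.18 for Ccl4.

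The genes lie next to each other on chromosome 11 of GRCm38, Ccl3 at 83647844 to 83649355 on the minus strand and Ccl4 at 83662584 to 83664683 on the plus strand, 13.2 kb apart. Their levels kept a narrow ratio: Ccl3 over Ccl4 was 0.796, 0.736 and 1.08 in CST mice, against 0.969, 0.723 and 0.990 in Yoda1 mice. The ratio moved by a factor of 1.5 over the 6 libraries, in which the sum of the pair moved by a factor of 98.7.

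Ccl5 (RANTES), a chemokine of T cells and NK cells, was low in all mice, at 5.25, 6.50 and 4.71 FPKM in CST skin and 10.5, 11.2 and 5.53 FPKM in Yoda1 skin. Yoda1 mouse 3 lay within the CST range and the other Yoda1 mice lay above it. The log2 change was -0.59 (SE 0.29), with an unadjusted p of 0.0785 and an adjusted p of 1 in limma. T and NK cell markers summed to 20.3 to 30.4 FPKM in CST skin and 15.9 to 47.8 FPKM in Yoda1 skin, with Yoda1 mouse 3 the lowest of all 6. The part of these cells in the level of Ccl5 was not tested.

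Ccl6 and Ccl9 are the members next to Ccl3 on chromosome 11, and their values were spread otherwise. Ccl6 measured 816, 432 and 428 FPKM in CST mice and 1048, 977 and 213 FPKM in Yoda1 mice. Ccl9 measured 315, 183 and 169 FPKM in CST mice and 464, 442 and 110 FPKM in Yoda1 mice. For each of them Yoda1 mouse 3 was the lowest of all 6 mice and Yoda1 mice 1 and 2 the highest, so the groups overlapped.

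The log2 changes of -0.18 (SE 0.61) for Ccl6 and -0.40 (SE 0.56) for Ccl9 were smaller than their errors, and the limma adjusted p was 1 for both. Without Yoda1 mouse 3 the changes were -0.93 and -1.08, and without Yoda1 mouse 1 they were 0.22 and -0.05. Ccl6 over Ccl9 was 2.59, 2.37 and 2.53 in CST skin, against 2.26, 2.21 and 1.94 in Yoda1 skin. This ratio spanned a factor of 1.33 over all libraries, and each CST ratio lay above each Yoda1 ratio (exact two-sided permutation p = 0.1, the smallest that 3 against 3 mice can give).

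**Figure D2:**
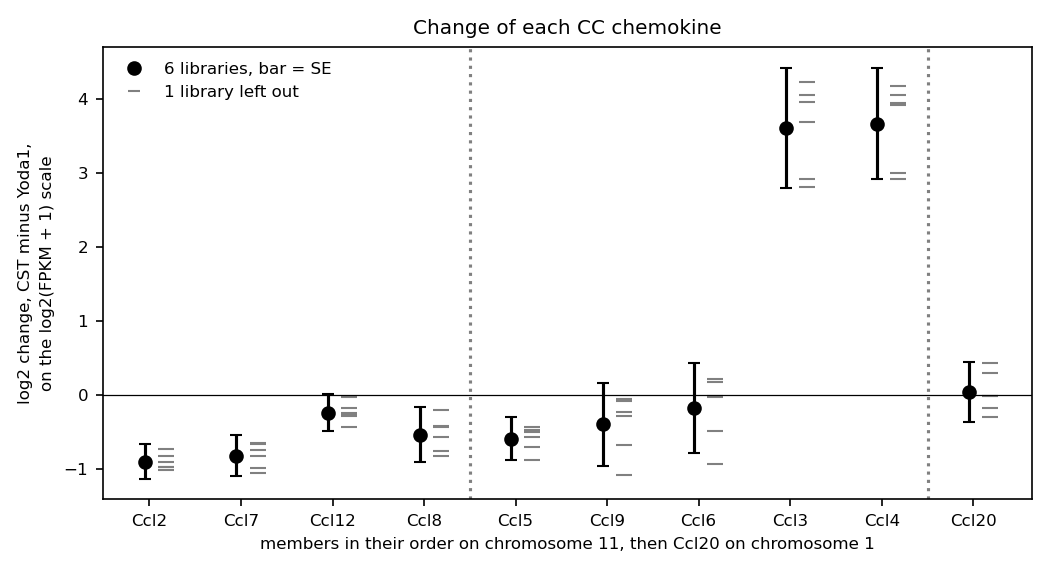
Difference of mean log2(FPKM + 1), CST minus Yoda1, for each member, placed in order along chromosome 11 with Ccl20 of chromosome 1 last; black points and bars are the estimate and SE over 6 libraries, grey ticks the values with 1 library left out. Ccl3 and Ccl4 lie between 2.81 and 4.23 with any library left out, and the 4 monocyte chemoattractant genes at the left stay below 0.

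The 4 monocyte chemoattractant genes lie together in the other part of the chromosome 11 cluster, from Ccl2 at 82035571 to the end of Ccl8 at 82116799, which is 1409 kb before Ccl5. All of them had a negative log2 change, and of the 10 members 7 did, against 52.8% of all genes tested. Ccl2 measured 82.9, 79.0 and 55.5 FPKM in CST skin, against 135, 121 and 149 FPKM in Yoda1 skin. The groups did not overlap, and Yoda1 mouse 3 was the highest. The log2 change of Ccl2 was -0.90 (SE 0.23), or 1.87-fold lower in CST, with an unadjusted p of 0.00420 and an adjusted p of 0.561 in limma.

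Ccl7 measured 79.4, 135 and 87.2 FPKM in CST skin and 175, 219 and 137 FPKM in Yoda1 skin. The highest CST value and the lowest Yoda1 value nearly touched. The log2 change was -0.82 (SE 0.28), with an unadjusted p of 0.0202 and an adjusted p of 0.819 in limma. With any 1 library left out, the change stayed between -1.01 and -0.73 for Ccl2 and between -1.05 and -0.65 for Ccl7.

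Ccl8 measured 1237, 863 and 521 FPKM in CST mice and 1400, 1390 and 876 FPKM in Yoda1 mice, so that CST mouse 1 lay above Yoda1 mouse 3. Its log2 change was -0.54 (SE 0.37), with an adjusted p of 1 in limma. Without CST mouse 1 it was -0.83 and without CST mouse 3 it was -0.21. Ccl12 measured 47.3, 59.8 and 33.8 FPKM in CST mice and 53.9, 58.8 and 50.3 FPKM in Yoda1 mice, with CST mouse 2 above every Yoda1 mouse. Its log2 change was -0.24 (SE 0.25).

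Ccl20 was the lowest of the members, at 1.54, 3.74 and 5.99 FPKM in CST mice and 2.17, 2.99 and 5.16 FPKM in Yoda1 mice. Mouse 3 was highest and mouse 1 lowest in each group, and the log2 change of 0.04 (SE 0.41) turned negative with some libraries left out (-0.30 to 0.43). It rests on 37 to 173 reads per library.

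Of the 10 members, 2 lay wholly above in CST, where 4.52% of all tested genes did, and 2 lay wholly below, where 2.08% did. The members' median log2 change was -0.32, against -0.01 over all genes tested. Groups that lie apart in all 6 libraries cannot overlap once a library is left out. Ccl3 and Ccl4 thus had to stay wholly above, and Ccl2 and Ccl7 wholly below, which adds no support. Without CST mouse 1, 2 or 3 the shares of all genes were 14%, 6.12% and 7.1% above and 5.31%, 6.72% and 3.08% below. Without Yoda1 mouse 1 or 2 they were 7.32% and 7.3% above and 2.82% and 6.32% below. Ccl8 was also wholly below without CST mouse 1, and Ccl5 and Ccl12 without CST mouse 2. With Yoda1 mouse 3 left out, 6 members lay wholly below in CST (Ccl2, Ccl5, Ccl6, Ccl7, Ccl8 and Ccl9), beside 16.3% of all genes, and Ccl3 and Ccl4 lay wholly above, beside 11.8%. With CST mouse 1 left out as well, the same 6 lay below, beside 20.9% of all genes, and Ccl20 joined Ccl3 and Ccl4 above, beside 24.3%.

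As a share of the summed FPKM of the 10 members, Ccl3 and Ccl4 together made up 54.2%, 22.6% and 40.4% in CST mice, against 4.55%, 0.953% and 8.09% in Yoda1 mice. The share separated the groups (exact two-sided permutation p = 0.1, the smallest possible here). Both genes were already seen to lie wholly above in CST, so the share adds no separate support. The monocyte chemoattractant genes made up 25.6%, 50% and 31.9% in CST mice, against 51.2%, 55% and 72.1% in Yoda1 mice. Ccl3 and Ccl4 stand in the total of this share, so it falls when they rise and the other members stay the same. Ccl6 and Ccl9 stand in that total too. In FPKM the 4 genes summed to 1447, 1137 and 698 in CST mice and 1764, 1790 and 1212 in Yoda1 mice, and the groups overlapped (exact permutation p = 0.2). Ccl6 and Ccl9 made up 20% to 27.3% in CST mice and 19.2% to 43.9% in Yoda1 mice. The summed level itself overlapped, at 5644, 2276 and 2189 FPKM in CST mice and 3446, 3254 and 1681 FPKM in Yoda1 mice (exact permutation p = 0.8).

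**Figure D3:**
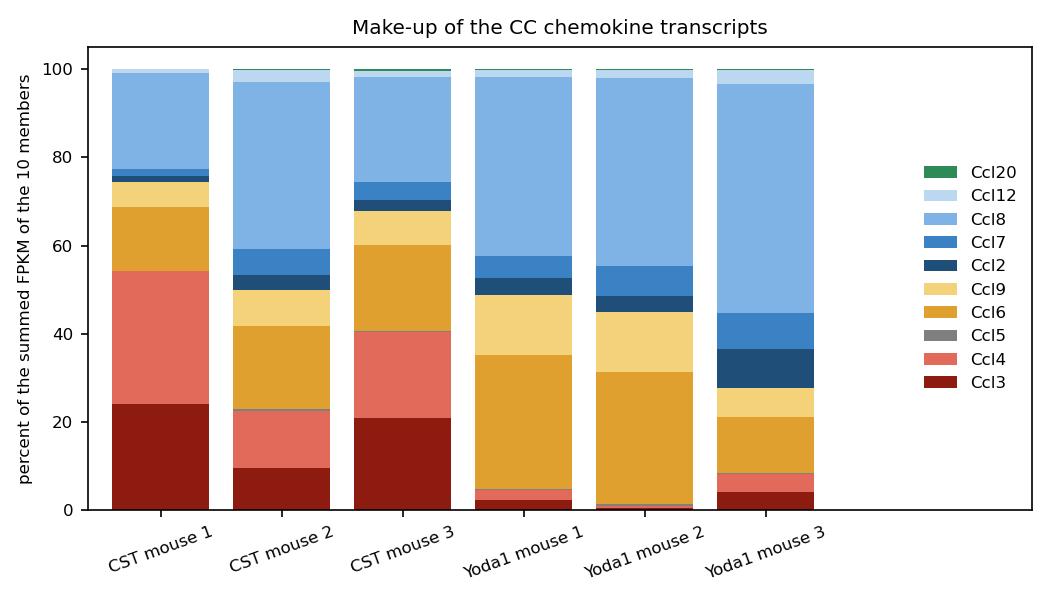
Percent of the summed FPKM of the 10 CC chemokines taken by each gene, 1 bar per mouse, CST mice at the left and Yoda1 mice at the right. The red segments (Ccl3 and Ccl4) take 22.6% or more in each CST mouse and at most 8.09% in each Yoda1 mouse.

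The levels of the cells that make and meet these chemokines were set beside them. In bulk skin, fewer cells of a type and less RNA per cell cannot be told apart. The 13 neutrophil markers summed to 11060, 1775 and 1725 FPKM in CST mice and 1556, 685 and 4102 FPKM in Yoda1 mice, and 7 of them passed the filter, all with a positive log2 change (0.58 to 2.09). Elane, a defining gene of neutrophil precursors, was at 0.309 FPKM or less. S100a8 and S100a9 made up 92.6% to 96% of the sum in CST mice and 95.6% to 98.1% in Yoda1 mice. Without both, a sum chosen after the values were seen, the markers gave 440, 132 and 68.4 FPKM in CST mice and 68.7, 28.2 and 76.3 FPKM in Yoda1 mice. CST mouse 1 was highest in either sum and also in Ccl3 and Ccl4, and the groups overlapped in both sums. Taken singly, 2 of the 7 tested markers lay wholly above in CST, beside 4.52% of all genes tested, and the rest overlapped. Ccl3 plus Ccl4 over the neutrophil sum was 0.277, 0.290 and 0.513 in CST mice, against 0.101, 0.0453 and 0.0332 in Yoda1 mice. Over the sum without S100a8 and S100a9 it was 6.95, 3.9 and 12.9 in CST mice, against 2.28, 1.1 and 1.78 in Yoda1 mice. Between geometric means the fold difference was 6.47 for the first ratio and 4.28 for the second, against 12.8 for the plain sum of the pair. The part of neutrophils in the levels of Ccl3 and Ccl4 was not tested.

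The 15 monocyte and macrophage markers summed to 2459, 2265 and 1672 FPKM in CST mice and 4595, 5429 and 1567 FPKM in Yoda1 mice, and 13 of the 14 tested, Mrc1 and Ccr2 among them, had a negative log2 change. The exception, named after its values were seen, was Cd14, the lipopolysaccharide co-receptor, with 392, 142 and 149 FPKM in CST mice and 107, 63.2 and 48.7 FPKM in Yoda1 mice. Over the macrophage sum, Ccl3 plus Ccl4 was 1.24, 0.227 and 0.529 in CST mice, against 0.0341, 0.00571 and 0.0868 in Yoda1 mice. Ccl2 over the same sum was 0.0337, 0.0349 and 0.0332 in CST mice, against 0.0293, 0.0223 and 0.0953 in Yoda1 mice (exact permutation p = 1). Yoda1 mice 1 and 2 lay below every CST mouse in this ratio and Yoda1 mouse 3 above. Ccl9 over that sum varied by a factor of 1.83 over the 6 libraries and Ccl6 by 2.44, with overlapping groups. Skeletal muscle and erythroid markers also lay apart, at 6597 to 12205 and 909 to 2560 FPKM in CST skin and 107 to 4744 and 309 to 710 FPKM in Yoda1 skin, and the part of macrophages, muscle or blood in the chemokine values was not tested.

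**Figure D4:**
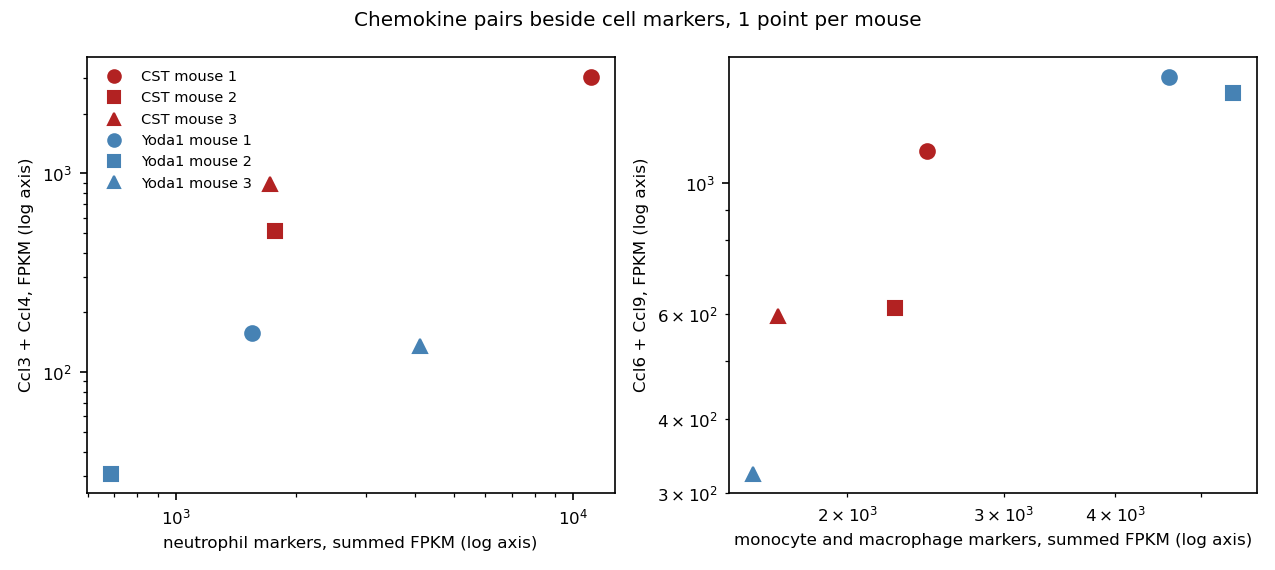
Left, Ccl3 plus Ccl4 against the summed neutrophil markers; right, Ccl6 plus Ccl9 against the summed monocyte and macrophage markers; FPKM on log axes, 1 point per mouse, CST in red and Yoda1 in blue. At the left CST mouse 1 is highest and Yoda1 mouse 2 lowest on both axes, and at the right Yoda1 mouse 3 is lowest on both axes.

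The receptors showed smaller differences than Ccl3 and Ccl4, and 0 of 6 tested passed the threshold, with 4 positive and 2 negative log2 changes. Ccr1, the receptor of Ccl3, Ccl5, Ccl6 and Ccl9, measured 87.4, 30.1 and 21.6 FPKM in CST mice and 31.5, 18.1 and 15.8 FPKM in Yoda1 mice (log2 change 0.86, SE 0.51). Ccrl2, a non-signalling relative of these receptors, measured 13.1, 5.51 and 2.60 FPKM in CST mice and 2.90, 1.40 and 3.43 FPKM in Yoda1 mice (log2 change 1.00, SE 0.49). CST mouse 1 was the highest of all for both genes. Ccr2, the receptor of Ccl2, Ccl7 and Ccl12, averaged 31.3 ± 16.1 FPKM in CST skin and 40.9 ± 20.2 FPKM in Yoda1 skin (SD, n = 3 each). The log2 change of Ccr4, through which T cells sense Ccl17 and Ccl22, was 0.54 (SE 0.37).

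The eosinophil receptor Ccr3 stayed under 1 FPKM, and Ccr6, the receptor of Ccl20, did not exceed 0.0361 FPKM in any library. Ackr2, a decoy receptor that takes up inflammatory CC chemokines without signalling, measured 2.58, 2.70 and 2.43 FPKM in CST mice and 1.82, 2.06 and 1.65 FPKM in Yoda1 mice, with no overlap and a log2 change of 0.33 (SE 0.20). Of the 4 atypical receptors, 1 had a positive and 3 a negative log2 change, and none passed. Of 9 genes that carry or end the receptor signal, 2 were positive and 7 negative (median -0.17), and none passed; Dock2, which drives leukocyte migration, had the smallest p and a log2 change of -0.42 (SE 0.45).

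The other CC ligands did not separate the groups: of 12 with a row, 8 passed the filter, 3 with a positive and 5 with a negative log2 change (median -0.08), and 0 were called by limma. Ccl21a, the lymphatic ligand of CCR7, had the smallest p, with 22.2, 44.8 and 52.7 FPKM in CST mice and 76.2, 92.1 and 36.4 FPKM in Yoda1 mice (log2 change -0.75, SE 0.43). Ccl17 and Ccl22, ligands of CCR4, had log2 changes of -0.72 (SE 0.79) and 0.45 (SE 0.63), and the eosinophil chemoattractant Ccl24 one of -0.30 (SE 0.71). Each of those 3 genes was lowest in Yoda1 mouse 3.

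Among 14 genes for inducers of CC chemokines and the NF-kappaB pathway, 13 were tested, 7 of them with a positive and 6 with a negative log2 change (median 0.19). None passed the threshold. The CST values lay wholly above in 3, which were Tnf, Il1b and Nfkbia, beside 4.52% of all genes tested. Tnf measured 84.1, 11.4 and 25.8 FPKM in CST mice and 4.40, 1.39 and 5.50 FPKM in Yoda1 mice (log2 change 2.80, SE 0.69, limma adjusted p = 0.561). Il1b measured 1046, 288 and 280 FPKM in CST mice and 116, 42.9 and 91.5 FPKM in Yoda1 mice (log2 change 2.5, SE 0.57, limma adjusted p = 0.521). Nfkbia, the inhibitor that NF-kappaB itself induces, had a log2 change of 0.89 (SE 0.25), and Il1a one of 1.80 (SE 0.70). The 5 genes of the NF-kappaB subunits, singled out after their values were seen, overlapped between the groups, with log2 changes of -0.05 for Nfkb1, -0.11 for Nfkb2, -0.14 for Rela, -0.25 for Relb and 0.19 for Rel.

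To place each member among all genes, the genes with the nearest profile were found, as the root mean square difference of the centred log2(FPKM + 1) values over the 6 libraries. Nearest to Ccl3 was Cxcl2, a neutrophil-attracting CXC chemokine, at 0.303, with 2630, 383 and 730 FPKM in CST mice and 127, 33.9 and 189 FPKM in Yoda1 mice. Next came the glucose transporter gene Slc2a3 at 0.540 and Tnf at 0.558. Nearest to Ccl4 were Cxcl2 at 0.334, Slc2a3 at 0.462 and Garin1a at 0.519. Ccl3 and Ccl4 differed from each other by 0.219, less than from any of these genes.

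Nearest to Ccl2 was Eif2ak2, the RNA-activated kinase PKR, at 0.0419, with 17.7, 17.2 and 12.2 FPKM in CST mice and 28.0, 26.2 and 31.8 FPKM in Yoda1 mice. The microRNA gene Mir1898 (0.0576) and Cmpk2 (0.0802) followed. Nearest to Ccl7 were Calhm6 (0.0885), Xaf1 (0.117) and the galectin gene Lgals9 (0.154). Eif2ak2, Cmpk2 and Xaf1 are known as genes that interferon induces.

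Nearest to Ccl6 were Pamr1 (0.122), the macrophage mannose receptor gene Mrc1 (0.195) and the clotting factor gene F13a1 (0.222). Pamr1 (0.141) and Mrc1 (0.187) were also nearest to Ccl9, followed by Hacd4 (0.211). Mrc1 measured 98.5, 61.8 and 44.7 FPKM in CST mice and 115, 103 and 30.3 FPKM in Yoda1 mice. Ccl6 and Ccl9 differed from each other by 0.138.

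Nearest to Ccl8 were Milr1 (0.105), the mannosidase gene Man1a (0.112) and the RNA sensor gene Tlr7 (0.131). Nearest to Ccl12 were Tbc1d1 (0.0459), Cxcl16 (0.0937) and Gfra1 (0.0985), and to Ccl5 Gpx8 (0.0365), Adap1 (0.0672) and the ceruloplasmin gene Cp (0.0719). Ccl20, the epithelial member, had Thop1 (0.131), Krt10 (0.161) and Traip (0.178). Krt10, a keratin of the upper epidermis, measured 2159, 3123 and 5323 FPKM in CST mice and 2054, 2585 and 4996 FPKM in Yoda1 mice. Distances are small for members that varied little, so they rank genes within a member and not between members. The 1 added before the log2 also narrows the spread of genes near 1 FPKM. Such genes were Pamr1 (0.348 to 5.34 FPKM), Mir1898 (0.415 to 2.53 FPKM) and Calhm6 (0.796 to 4.24 FPKM). In FPKM, each of them varied by a larger factor than the members it lay near.

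**Figure D5:**
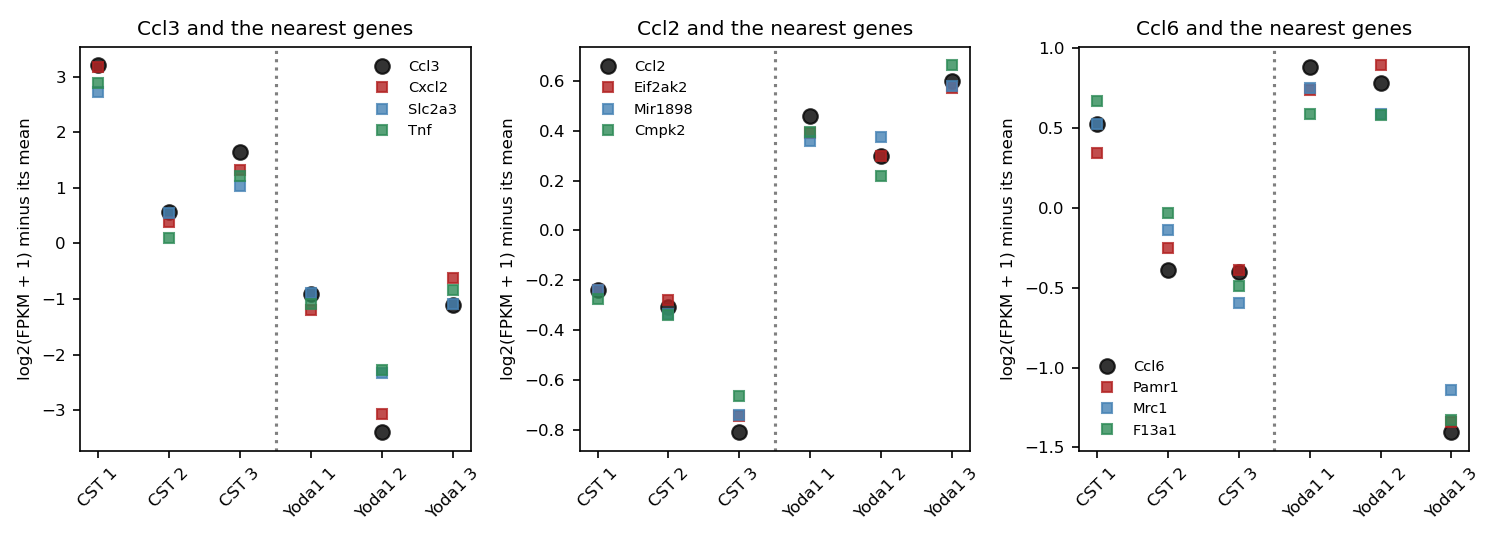
Centred log2(FPKM + 1) of Ccl3, Ccl2 and Ccl6 (black circles) and of the 3 genes nearest to each (squares) in the CST mice, left of the dotted line, and the Yoda1 mice, right of it. Ccl3 is highest in CST mouse 1 and lowest in Yoda1 mouse 2, Ccl2 is lower in all CST mice, and Ccl6 is lowest in Yoda1 mouse 3.

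The RefSeq promoter table (GRCm38.p6) held 6 members. The 250 bases before the start are shown for Ccl3, the member of this table that lay apart between the groups, and for Ccl8 and Ccl12, the most alike of the 15 pairs here as in the coding sequence, with 60.9% of aligned bases identical. Capitals mark TATAA on either strand, overlapping matches merged.
Ccl3: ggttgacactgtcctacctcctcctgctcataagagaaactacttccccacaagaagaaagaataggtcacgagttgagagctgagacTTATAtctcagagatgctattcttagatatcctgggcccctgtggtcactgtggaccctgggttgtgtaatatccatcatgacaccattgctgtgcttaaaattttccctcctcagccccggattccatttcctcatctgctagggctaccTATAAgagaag
Ccl8: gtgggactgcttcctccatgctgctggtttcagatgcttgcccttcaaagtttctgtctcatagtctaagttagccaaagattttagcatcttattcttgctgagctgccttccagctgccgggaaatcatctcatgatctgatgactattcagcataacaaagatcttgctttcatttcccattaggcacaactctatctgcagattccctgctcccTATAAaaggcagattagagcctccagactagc
Ccl12: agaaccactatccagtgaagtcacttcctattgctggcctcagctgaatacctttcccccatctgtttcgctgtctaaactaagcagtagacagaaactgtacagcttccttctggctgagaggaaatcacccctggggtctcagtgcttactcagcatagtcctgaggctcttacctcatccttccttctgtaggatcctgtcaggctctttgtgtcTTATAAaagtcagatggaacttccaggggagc
They lie at chr11:83649379-83649628 (minus strand), chr11:82114935-82115184 and chr11:82101595-82101844 (plus strand). Ccl6 and Ccl9 were identical at 44.5% of aligned bases in this stretch, within the 41.6% to 60.9% of all pairs.

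In the full 300 bases, up to 50 past the start, TATAA was present in 5 of the 6 members, Ccl6 being the exception, and in 24.9% of 32851 promoters. The loose NF-kappaB letters, GGG and CC with any 5 bases between them, on either strand, were present in Ccl9 and Ccl20 and in 50.8% of all promoters. TGANTCA of AP-1 was in Ccl9 and in 7.81% of all promoters. The interferon response letters, GAAA repeated after any 2 bases, were in none of the 6 and in 3.44% of all promoters. A match describes the letters only, and a missing match says only that these letters are not in this window.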

How the data were processed

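RNA was sequenced from skin of 3 CST-treated and 3 Yoda1-treated mice, grouped by sample title. The authors deposited FPKM values per gene, with no counts. No label names the aligner, the counting tool or the strand setting. GRCm38 and mm10 are named, per the submitters' processing notes, but 2.8% of the deposited starts equalled the GENCODE M21 starts, so positions are from GENCODE M21 on GRCm38, matched by gene identifier.

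The steps of the FPKM values gave each library's depth. With it, each tested gene came out as whole reads (within 0.01) in all 6 libraries (100.00% of 14588), taking the shortest length that fitted. Counting error only is covered.

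Log2(FPKM + 1) values, made from the deposited FPKM, were tested with limma 3.58.1 (R 4.3.3; eBayes with trend, two-sided) where a gene averaged 1 FPKM or more, with Benjamini-Hochberg adjustment over 14588 genes and a threshold of 0.05. Changes are CST minus Yoda1, and the pseudocount of 1 understates changes of low genes. Alternatives were another pseudocount, other filters, scalings and variance models, limma-voom on the recovered reads, library weights, a replicate block and each library left out.

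The members and gene lists were chosen with earlier results of these data known, so no list was tested. Named genes are the members, a fixed set of receptors and inducers, up to 4 genes of each pathway list with the smallest p, and the 3 nearest profiles of each member; 1 receptor and 1 coding stretch are not reported here.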

Additional observations from a re-analysis of the deposited data

How the results depend on the processing

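No alternative that kept all 6 libraries at equal weight changed a limma call. Of 160 member values over 16 alternatives, 146 kept their sign and their side of the threshold, 7 passed it and 7 changed sign. The 7 that passed all came from the library weights, which ran from 0.193 for Yoda1 mouse 3 to 12.8 for Yoda1 mouse 1. The Yoda1 side thus rested mainly on Yoda1 mouse 1. Of 14588 genes, 1348 were called with these weights, among them 7 members. Their log2 changes were 2.08 for Ccl3, 2.32 for Ccl4, -0.87 for Ccl2, -0.72 for Ccl5, -1.16 for Ccl6, -0.81 for Ccl8 and -1.27 for Ccl9 (limma adjusted p from 0.0168 to 0.0486), and the members' median was -0.65. Signs changed for Ccl20 with quantile normalization (-0.0034) and with a library left out (-0.30 to 0.43), and for Ccl6 with a library left out (-0.93 to 0.22). With 1 library left out, 0 to 136 genes and 0 members were called, and the members' median ran from -0.80 to -0.13. Without CST mouse 1 and Yoda1 mouse 3, an alternative chosen after seeing the data, 0 genes were called, the median was -0.85, and the changes were 0.69 for Ccl20 and -1.23 for Ccl6. The causes were not tested.

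With the mouse number as a replicate block, 0 genes and 0 members were called and 680 genes had an unadjusted p under 0.05, against 584 without it. Same-numbered mice deviated from their group means with correlations of -0.08, 0.21 and -0.20, and 1 of 3 CST mice correlated best with its own number, so the numbers were not taken as pairs. At 3 mice a group, exact permutation cannot give a two-sided p below 0.1.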

Other observations

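Some CC ligand genes of chromosome 4 have near-identical copies, and values of some of these were looked at after the rest. Ccl19-ps3, a pseudogene copy of the dendritic cell chemokine Ccl19, was listed at 0, 20.6 and 9.88 FPKM in CST mice and at 0.104, 14.1 and 5.45 FPKM in Yoda1 mice, so that mouse 1 of each group had almost none. Ccl19 itself measured 0.748, 0.501 and 2.34 FPKM in CST mice and 1.08, 1.75 and 0.466 FPKM in Yoda1 mice. Ccl21b and Ccl21d were listed at 0 in all libraries, beside 22.2 to 92.1 FPKM for Ccl21a. How reads of such copies were assigned was not tested, so these values are uncertain.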
